A study of Mus musculus with 24 samples.

Results

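The miRNAs described here are those of the imprinted Dlk1-Dio3 locus of the mouse, measured in bone marrow, 2 leukaemia lines and a teratocarcinoma line. A rule on assay names picked them out. It took each mouse assay whose number is 1 of 45 numbers known from the locus, with any letter or arm. Names with the * or # that marks an opposite strand were left out. The rule itself uses names and no measured value. The rule found 50 of the 584 miRNA assays, 45 on card A and 5 on card B, and 41 of the 45 numbers had at least 1 assay. All 50 matched a miRNA hairpin gene by name in RefSeq (mouse assembly GRCm38.p6), 43 hairpin genes in all, which lie on chromosome 12 within 180.0 kb (chr12:109563692-109743795).

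Total RNA of 4 groups was run on TaqMan low density arrays, each well of which amplifies 1 small RNA by quantitative PCR, with 3 replicates a group. CT-BM is primary bone marrow flushed from the femur and tibia of mice. The lines, taken at passage 3, are L-1210 from a lymphocytic leukaemia, PYS, an adherent teratocarcinoma line, and M1 from a myeloid leukaemia. Strain, age and treatment are not given for any group, the series title calls the marrow cells stem cells, and the growth protocol on the marrow samples is that of a suspension culture. Each tumour type is represented by 1 line, and no label says whether replicates came from separate cultures or animals, so the p-values below describe the spread between these samples, which can be technical.

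The readout is the threshold cycle (Ct), the PCR cycle at which a well crosses its detection threshold: each cycle earlier is about a doubling of template. A well that did not amplify in 40 cycles, or had a Ct over 35, was counted as not detected and set to 35. Levels are negative delta Ct values, a log2 measure: the Ct of the miRNA was subtracted from the average of 3 control RNAs (MammU6, snoRNA135 and snoRNA202) run on that card with that replicate. Assays differ in efficiency, so a Ct orders samples within an assay and not the amounts of different miRNAs. Of 600 values for members in 12 replicates 576 were present, and 33 members had all 12. In CT-BM all 8 blood miRNAs of a marker list were detected, and in PYS all 11 embryonic stem cell miRNAs on the cards were detected.

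The Dlk1-Dio3 locus is a domain of genes expressed from only 1 parental chromosome. The paternal copy expresses the protein genes Dlk1, Rtl1 and Dio3, and the maternal copy expresses the noncoding RNAs Meg3, Rtl1 antisense, Rian and Mirg, from which the miRNAs are cut. A group of hairpins lies near Meg3 and in the Rtl1 antisense RNA, where miR-127, miR-434 and miR-136 match the Rtl1 message perfectly and can direct its cleavage. A larger cluster, from miR-379 to miR-410, is cut from Mirg. The locus is known for high activity in brain and placenta and in embryonic stem cells with a normal imprint, and in blood it has been tied to stem cells.

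The mature sequences of the members on which the results turn are shown first, 5′ to 3′, with the seed (bases 2 to 8, the part that pairs with targets) in capitals. They were chosen because they have the earliest Ct values, the largest differences between groups, or a close relative with another pattern of detection. Of the 18 detected members 17 had a mature sequence in the RefSeq table (GRCm38.p6), all on the plus strand, and miR-376c had none there.
miR-673-5p, chr12:109572004-109572025: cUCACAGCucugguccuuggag
miR-667, chr12:109720061-109720083: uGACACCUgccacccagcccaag
miR-337-5p, chr12:109585818-109585839: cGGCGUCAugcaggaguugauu
miR-337-3p, chr12:109585850-109585871: uCAGCUCCuauaugaugccuuu
miR-127, chr12:109592888-109592909: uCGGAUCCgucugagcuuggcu
miR-434-3p, chr12:109594565-109594586: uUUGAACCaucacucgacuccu
miR-136, chr12:109595331-109595352: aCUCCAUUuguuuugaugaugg
miR-379, chr12:109709065-109709085: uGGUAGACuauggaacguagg
miR-411, chr12:109710190-109710210: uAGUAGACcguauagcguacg
miR-494, chr12:109715367-109715388: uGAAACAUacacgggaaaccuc
miR-376b, chr12:109723508-109723528: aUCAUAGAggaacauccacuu
miR-376a, chr12:109723824-109723844: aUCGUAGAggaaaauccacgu
miR-410, chr12:109743764-109743784: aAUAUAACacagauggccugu

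No seed was shared: the 17 sequences carried 17 different seeds. The closest relatives were miR-376a and miR-376b, which differ at 3 of 21 bases (G4A, A13C and G20U, the base of miR-376a first and positions counted from the 5′ end), 1 of them in the seed. Neighbours miR-379 and miR-411 differ at 7 of 21 bases, of which G2A, the base of miR-379 first, is the 1 difference in the seed.

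Only a minority of the locus was detected in any group. In at least 1 replicate 18 of 50 members (36.0%) were detected, against 360 of 511 other miRNA assays (70.5%), with the opposite-strand and rat-named assays of the locus left out. The 32 members never detected include miR-134, which regulates dendritic spines in neurons, and miR-370, miR-382, miR-431, miR-433 and miR-485. For 31 of the 32 no well amplified, and miR-487b amplified in PYS at a Ct over 35. On the side of Meg3 and Rtl1 antisense 6 of 16 members were detected, and on the side from miR-379 to miR-410 12 of 34.

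CT-BM detected the most members and M1 the fewest. Every replicate present was detected for 18 members in CT-BM, 16 in L-1210, 10 in PYS and 8 in M1. As a share of members with a value this was 35.1% ± 0.754 in CT-BM (SD, n = 3), 30.9% ± 1.90 in L-1210, 18.5% ± 1.49 in PYS and 15.2% ± 0.858 in M1. No replicate of a group overlapped with another group, and each of the 6 exact two-sided permutation tests between groups gave p = 0.1, the smallest that 3 against 3 can give (Benjamini-Hochberg adjusted p = 0.1). Over all miRNA assays the detected shares were closer to each other, 53.8% in PYS, 51.7% in CT-BM, 48.6% in L-1210 and 44.6% in M1. With a Ct limit of 32 the PYS share was 9.29%, and those of CT-BM, L-1210 and M1 were 31.8%, 29.5% and 13.2%.

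**Figure D1:**
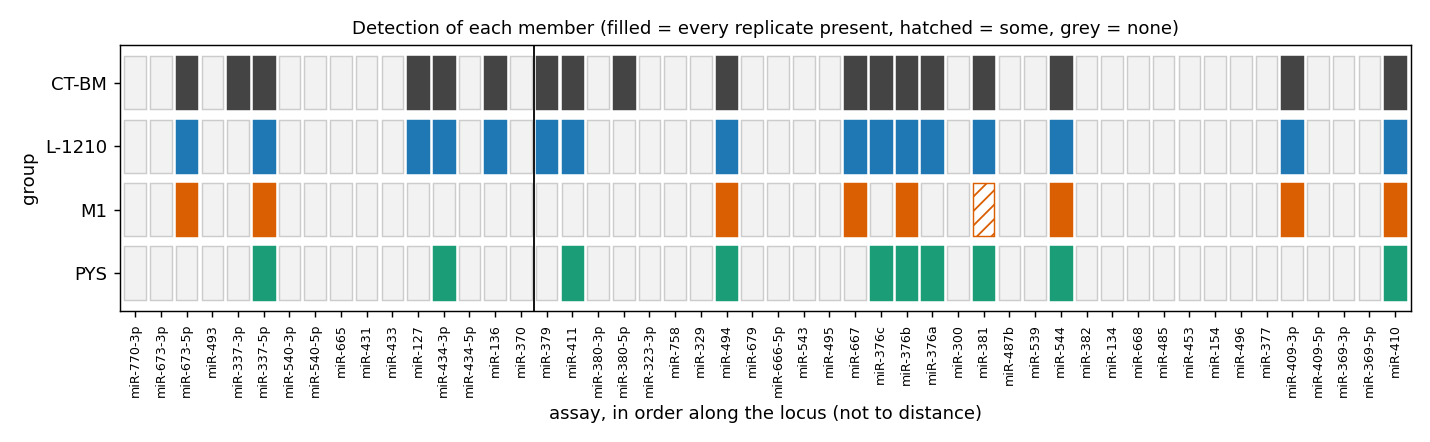
The 50 members in order along the locus (x axis, not to distance) by group (y axis), with a filled box where every replicate present was detected, a hatched box where only some were, and grey where none was. The vertical line parts the 16 members on the Meg3 and Rtl1 antisense side from the 34 on the miR-379 to miR-410 side. Every filled box of the lines stands under a filled box of CT-BM.

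The 18 detected members fell into 5 patterns, and no member was detected in a line and missing in CT-BM. Detected in all 4 groups were miR-337-5p, miR-376b, miR-410, miR-494 and miR-544. Those of CT-BM, L-1210 and PYS were miR-376a, miR-376c, miR-381, miR-411 and miR-434-3p, of which miR-381 was also detected in 1 of 3 replicates of M1. In CT-BM, L-1210 and M1 but not PYS were miR-409-3p, miR-667 and miR-673-5p. The antisense miRNAs miR-127 and miR-136, with miR-379, were detected in CT-BM and L-1210, and miR-337-3p and miR-380-5p in CT-BM alone.

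The members with the earliest Ct were miR-667 and miR-673-5p, and both were among the 8 of the 18 detected members that PYS lacked. The Ct of miR-667 was 22.0, 22.5 and 21.5 in CT-BM, 22.8 and 21.8 in the 2 replicates of L-1210 with a value, and 21.3 and 20.9 in the 2 of M1. It was not detected in the 2 replicates of PYS with a value. CT-BM, L-1210 and M1 lie close together, with PYS beyond the limit of 35. For miR-673-5p, the Ct was 22.7, 23.0 and 23.1 in CT-BM, 23.2 and 22.7 in L-1210 (2 replicates), and 21.7, 22.3 and 21.4 in M1, and none of the 3 PYS replicates amplified. M1 stood earlier than CT-BM in raw Ct for both, but its controls were also earlier. Their hairpins are not neighbours: in order along the locus miR-673 is number 2 and miR-667 number 24 of 43. Ranks were taken among the detected assays of the same card and replicate. On card B miR-673-5p ranked at the 75.3 percentile in CT-BM, 63.0 in L-1210 and 64.5 in M1. On card A, which holds the other detected members, miR-667 ranked at 70.2, 62.4 and 60.7. The median detected member ranked at 15.8, 13.2 and 12.9.

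The antisense miRNAs, which lie opposite Rtl1, had Ct values of 26.3 to 28.2 in CT-BM and later ones in L-1210. For miR-136, Ct was 26.3, 26.8 and 26.5 in CT-BM and 31.0, 30.6 and 30.4 in L-1210, and it was not detected in the 3 replicates of M1 or the 2 of PYS. For miR-127, Ct was 27.2, 28.1 and 28.2 in CT-BM and 29.7, 29.0 and 28.6 in L-1210, with no detection in 2 replicates each of M1 and PYS. For miR-434-3p it was 26.8, 27.1 and 27.0 in CT-BM, 30.8, 31.0 and 29.8 in L-1210 and 31.99, 31.2 and 33.0 in PYS, with none in M1. All 3 separated CT-BM from L-1210 without overlap, but by unequal amounts. Within a replicate, where the controls cancel, miR-136 came 0.94, 1.32 and 1.65 cycles before miR-127 in CT-BM and 1.35, 1.61 and 1.84 cycles after it in L-1210. The order of miR-434-3p and miR-127 turned likewise, from 0.40, 1.02 and 1.15 cycles before to 1.14, 1.99 and 1.27 cycles after. The 2 groups do not overlap in either difference, which shows that these neighbours did not change alike.

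At the head of the Mirg cluster, miR-379 and miR-411 lay close to each other in CT-BM and L-1210 and not in PYS. The Ct of miR-379 was 27.0, 27.4 and 27.0 in CT-BM and 29.3, 29.999 and 28.7 in L-1210, and no replicate of M1 or PYS was detected. That of miR-411 was 26.1, 27.0 and 26.6 in CT-BM and 29.3, 29.8 and 28.4 in L-1210, not detected in 2 replicates of M1, and 31.9, 31.96 and 32.3 in PYS. So PYS detected miR-411 in every replicate and miR-379 in none, while in CT-BM and L-1210 the Ct of miR-411 was earlier than that of miR-379 by 0.02 to 0.92 cycles in every replicate.

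In the miR-376 family, known for seed editing in brain, miR-376b was detected everywhere and its relatives were not. The Ct of miR-376b was 26.7, 25.6 and 25.6 in CT-BM, 28.0, 28.2 and 25.7 in L-1210, 29.6, 26.0 and 29.4 in PYS and 25.9, 28.0 and 26.8 in M1, so that all 4 groups overlap in raw Ct. For miR-376a it was 28.5, 29.8 and 28.5 in CT-BM, 30.8, 31.1 and 31.0 in L-1210 and 34.0 and 33.3 in 2 replicates of PYS, with none in the 3 of M1. For miR-376c, Ct was 28.9, 29.0 and 29.4 in CT-BM, 30.8, 31.0 and 29.8 in L-1210 and 34.0, 34.0 and 34.4 in PYS, again with none in M1. The last 2 put CT-BM first, L-1210 next and PYS last with no overlap. Their distance from miR-376b on the same card varied from 1.81 to 5.30 cycles for miR-376a and from 2.22 to 7.99 for miR-376c, widest for both outside CT-BM.

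Of the other members seen in all groups, miR-494 was about as early in raw Ct in PYS as in CT-BM. Its Ct was 26.0, 27.1 and 25.8 in CT-BM, 27.7, 27.0 and 26.0 in L-1210, 26.1, 25.7 and 27.0 in PYS and 27.7, 29.0 and 27.3 in M1. M1 alone lay later than CT-BM without overlap. For miR-410, the last hairpin of the cluster, Ct was 29.3, 29.6 and 29.1 in CT-BM, 31.2, 33.0 and 31.0 in L-1210, 31.9, 32.9 and 34.0 in PYS and 31.99 and 32.4 in 2 replicates of M1. The 3 lines overlap with each other and not with CT-BM. For miR-337-5p it was 28.9, 30.1 and 29.1 in CT-BM, 31.99, 31.3 and 31.7 in L-1210, 34.0 and 32.03 in 2 replicates of PYS and 30.01, 29.0 and 28.5 in M1. M1 overlaps here with CT-BM, while L-1210 and PYS do not. The opposite arm miR-337-3p, from the same hairpin, had Ct 33.8, 33.0 and 32.6 in CT-BM and no detection elsewhere.

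The remaining members were late or uneven. For miR-409-3p, Ct was 28.2, 29.0 and 28.5 in CT-BM, 30.005, 28.9 and 26.5 in L-1210 and 30.05 and 29.5 in 2 replicates of M1, with none in PYS. For miR-381 it was 28.9, 29.0 and 28.7 in CT-BM, 28.6 and 27.9 in L-1210 and 29.4 and 30.6 in PYS (2 replicates each), and in M1 28.3 in replicate 1 and none in the others. For miR-544 it was 33.0 and 31.5 in CT-BM, 32.2 and 31.3 in L-1210, 32.6 and 34.7 in PYS and 30.9, 32.3 and 33.8 in M1. Between CT-BM and L-1210 miR-409-3p and miR-544 overlap, and miR-381 came slightly earlier in L-1210 in raw Ct but overlaps on the scale relative to the controls. Seen in CT-BM alone, miR-380-5p had Ct 30.5 and 33.0 in the 2 replicates with a value.

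**Figure D2:**
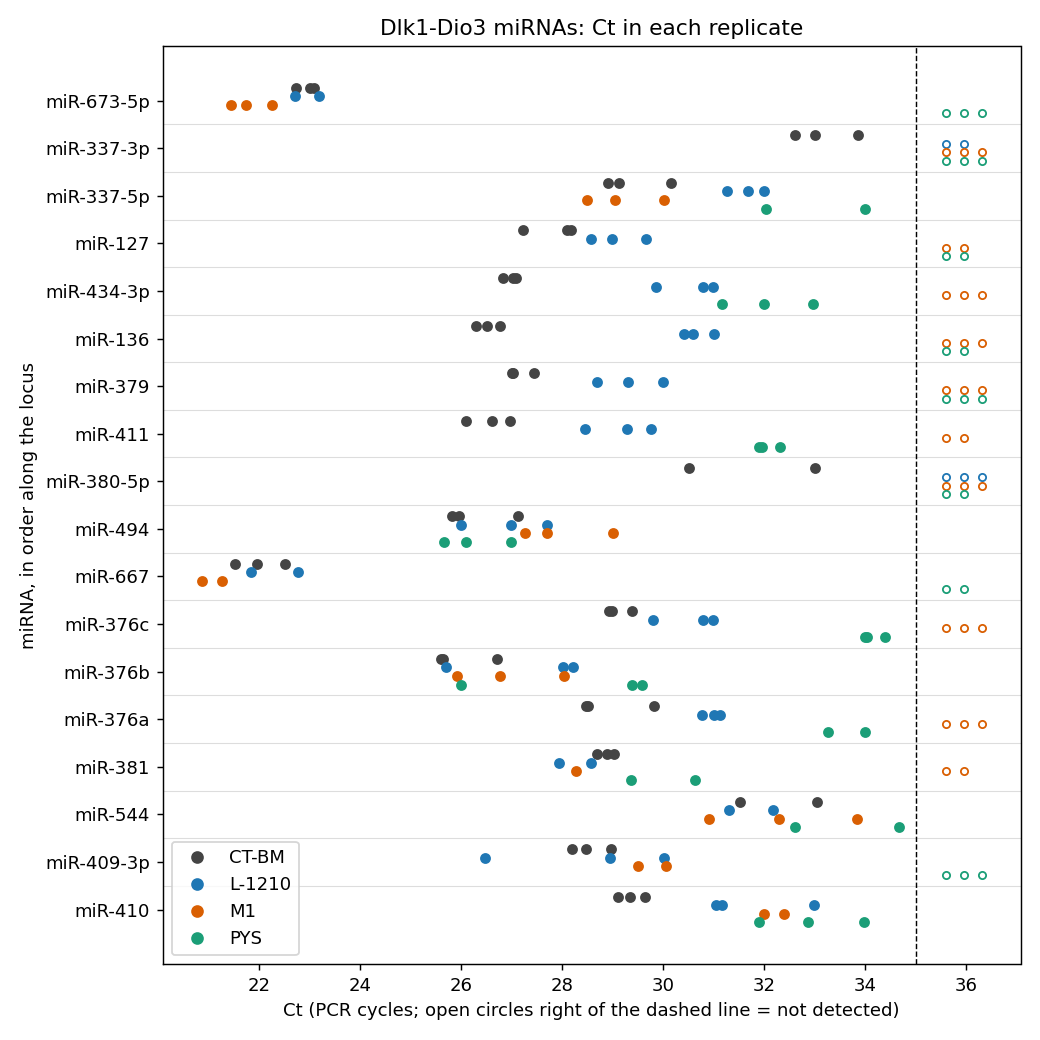
Ct in PCR cycles (x axis) of the 18 detected members, in order along the locus (y axis), with 1 point per replicate coloured by group. Open circles right of the dashed line at 35 are replicates that were not detected, and replicates with no value are not drawn. The points of miR-667 and miR-673-5p lie between 20.9 and 23.2, earlier than those of all other members.

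L-1210 against CT-BM sets a lymphocytic leukaemia line beside marrow. Of 18 members tested 15 were lower, 0 higher and 3 not called relative to the 3 controls, although with MammU6 alone 8 were lower and 0 higher, and with quantile normalization 5 were lower and 6 higher. Quantile normalization took in assays set to 35, whose share differs between groups. That can raise late detected assays in a group where more assays stand at 35. An assay was tested when every replicate present of at least 1 group was detected, and called at a limma adjusted p under 0.05 (Benjamini-Hochberg over the 333 assays tested) and at least 2-fold. Over all assays tested 45.6% were lower and 22.5% higher. Every tested member had to be detected in CT-BM or L-1210 to enter, and the 32 others have no level in either group. At an unadjusted p under 0.05, 15 were lower and 0 higher by limma. Each SE and p rests on a spread shared by all 4 groups. M1 and PYS were set to 35 for miR-136, miR-127 and miR-379, so that only their controls vary there. This can make the SE and p too small. Among members measured in both groups the largest difference was that of miR-136, with a log2 change of -5.15 ± 0.27 (SE), or 35.5-fold lower (limma adjusted p = 5.4e-09, n = 3 against 3). Next came miR-434-3p at -4.57 ± 0.28 (23.8-fold), miR-411 at -3.60 ± 0.21 (12.2-fold) and miR-410 at -3.37 ± 0.46 (10.3-fold), while with quantiles miR-411 was under 2-fold and so not called, and miR-410 was at 1.19. Further members were 5.37-fold to 9.57-fold lower, namely miR-376c (-2.42 ± 0.25), miR-376a (-3.03 ± 0.38), miR-379 (-3.17 ± 0.25) and miR-337-5p (-3.26 ± 0.47), of which quantiles turned all but miR-379 to higher and left miR-379 at -0.50, not called (limma adjusted p = 0.157). With MammU6 alone miR-376c was also not called (-0.68, limma adjusted p = 0.201). Bounds apply to miR-380-5p, at least 18.6-fold lower, and miR-337-3p, at least 7.24-fold lower, since no replicate of L-1210 was detected, and the second was not called with MammU6 alone (-0.83).

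The other members of L-1210 differed from CT-BM by under 6-fold or not beyond their error. The antisense miR-127 was 4.75-fold lower (-2.25 ± 0.30), and with MammU6 alone its change was -0.50 (limma adjusted p = 0.39). The pair of early members, miR-667 and miR-673-5p, was 2.47-fold and 3.09-fold lower (-1.30 ± 0.33 and -1.63 ± 0.29), but with MammU6 alone they stood at 0.72 and 0.15, and with the mean of assays common to all replicates neither was called. For miR-494 the change of -1.60 ± 0.50 was not called without L-1210 replicate 1 (-1.20, limma adjusted p = 0.0508), with the mean of common assays (-0.47) or in Ct as deposited (-0.59), and turned to 0.15 with MammU6 alone and 0.57 with quantiles. For miR-376b that of -2.33 ± 0.87 was not called without CT-BM replicate 2 or 3 or without L-1210 replicate 1 or 2 (limma adjusted p 0.0773 to 0.0847), nor with quantiles (-0.17), MammU6 alone (-0.59), the mean of common assays (-1.21) or Ct as deposited (-1.33). Not called were miR-381 (-0.40 ± 1.76), miR-409-3p (-0.93 ± 0.59) and miR-544 (-0.61 ± 0.98). The SE of miR-381 takes in the spread of M1, where only 1 of 3 replicates was detected. Its level SD was 0.29 in CT-BM and 0.22 in L-1210, and these 2 groups overlap. Over the 16 members detected in both groups the median log2 change was -2.38, beside -0.68 over all 254 assays detected in both.

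In M1, the myeloid leukaemia line, more of the locus was below detection. Of 18 members 17 were lower, 0 higher and 1 not called against CT-BM, although with quantile normalization 9 were lower and 4 higher, and in Ct as deposited, with no controls, 12 were lower and 1 higher. By limma at an unadjusted p under 0.05, 18 were lower and 0 higher. Over all 325 assays tested 44.3% were lower and 25.2% higher. All 18 members were detected in every replicate present of CT-BM, so the direction of a bound was set largely by the detection filter. For 9 of the 17 the fold is a bound, because no replicate of M1 was detected: miR-411 was at least 2040.0-fold lower, miR-136 at least 1826-fold, miR-434-3p at least 1338-fold, miR-379 at least 1174-fold and miR-127 at least 845-fold. The other bounds were at least 344-fold for miR-376a, 307-fold for miR-376c, 47.5-fold for miR-380-5p and 18.4-fold for miR-337-3p. These sizes take in that the controls of card A came up 2.36 cycles earlier in M1 than in CT-BM, which lowers the level that the Ct limit stands for.

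Among members measured in M1, miR-410 was 41.6-fold lower (log2 -5.38 ± 0.52, limma adjusted p = 1.8e-06, 2 replicates of M1 against 3), but with quantiles its change was 3.03. For miR-494 the fold was 16.5 (-4.05 ± 0.50), or -3.44 without M1 replicate 2, and with quantiles 0.013. For miR-409-3p it was 13.7 (-3.78 ± 0.66), and with quantiles 3.16. The family member miR-376b was 9.74-fold lower (-3.28 ± 0.87), with -3.97 without M1 replicate 1, -2.63 without replicate 2 and 0.23 with quantiles. The early miR-667 was 2.50-fold lower (-1.32 ± 0.33), which was not called with quantiles, with MammU6 alone or with the mean of assays common to all replicates and raw Ct turned to 0.94. With a change of -0.69 ± 0.25, miR-673-5p was not called because its fold of 1.62 was under 2 (limma adjusted p = 0.027), though the groups did not overlap. Over the 9 members detected in both groups the median was -3.28, beside -0.14 over 239 assays.

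Some of the differences in M1 hang on single replicates or on scaling. The change of miR-381, -6.25 ± 1.58, sets 1 detected replicate and 2 at the limit against CT-BM, and stood at -8.69 without M1 replicate 1 and -5.03 without replicate 2 or 3. That of miR-544 (-2.57 ± 0.90) was not called without CT-BM replicate 3 (-1.91), M1 replicate 2 (-2.50) or M1 replicate 3 (-1.72), was -3.23 without CT-BM replicate 2 and -3.48 without M1 replicate 1, and was 4.11 with quantiles. For miR-337-5p the change was -2.15 ± 0.47, with 4.29 by quantiles and 0.21 in Ct as deposited.

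PYS, the teratocarcinoma line, is not of blood origin. Against CT-BM 16 of 18 members were lower, 0 higher and 2 not called, with 14 to 17 lower and 0 higher under each of the 7 other scalings. The same counts, 16 and 0, stood at an unadjusted p under 0.05 in limma. Over all 362 assays tested 38.7% were lower and 39.8% higher. Of the 16 lower members 8 were bounds, with a direction set largely by the detection filter. The largest bounds were those of the early members, at least 15913-fold lower for miR-667 (2 replicates of PYS) and at least 10110.3-fold for miR-673-5p. Behind them were miR-136 at least 599-fold, miR-379 at least 440-fold, miR-127 at least 243-fold and miR-409-3p at least 169-fold lower, and in the 2 members seen in CT-BM alone the bounds were at least 15.6-fold for miR-380-5p and 6.92-fold for miR-337-3p. Among members measured in both groups miR-411 was 86.9-fold lower (log2 -6.44 ± 0.21, limma adjusted p = 2.8e-11, n = 3 against 3), miR-434-3p 64.6-fold (-6.01 ± 0.28), miR-376c 63.0-fold (-5.98 ± 0.25) and miR-376a 43.5-fold (-5.44 ± 0.42, 2 replicates of PYS).

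The range in PYS was wide, since miR-494 was not called at -0.89 ± 0.50 (limma adjusted p = 0.11) while most of the other members were lower. The levels of miR-494 in PYS still lay below those of CT-BM without overlap, by 1.86-fold. Also not called was miR-381, at -2.09 ± 1.73 (limma adjusted p = 0.28). That SE rests on the spread shared by all groups, which takes in M1, where only 1 of 3 replicates was detected. The levels of miR-381 in CT-BM and PYS did not overlap, with an SD of 0.29 (n = 3) and 0.37 (n = 2). This fit therefore cannot decide whether miR-381 differs between them. For miR-410 the fold was 22.5 (-4.49 ± 0.46). That of miR-337-5p was 26.9 (-4.75 ± 0.53), at -3.97 without PYS replicate 1 and -5.52 without replicate 2, and that of miR-376b 9.73 (-3.28 ± 0.86), at -2.67 without PYS replicate 1 and -4.25 without replicate 2. The change of miR-544 (-2.47 ± 0.96) was not called without CT-BM replicate 3 (-1.80) or PYS replicate 3 (-1.81), and was -3.13 without CT-BM replicate 2 and -3.12 without PYS replicate 2. Over the 10 members detected in both groups the median was -4.62, beside -0.08 over 256 assays.

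**Figure D3:**
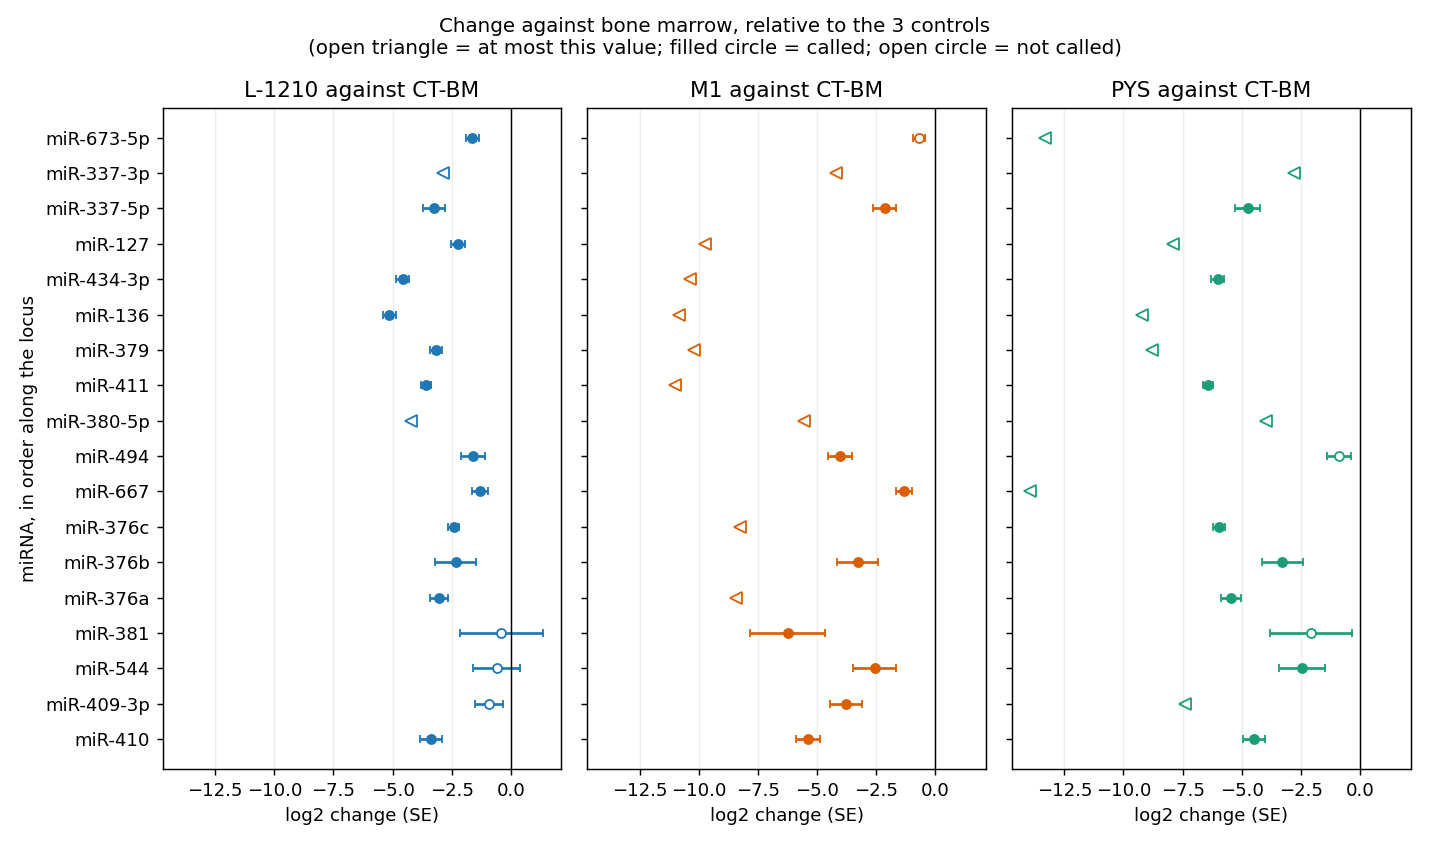
Log2 change against CT-BM relative to the 3 controls (x axis) for the 18 tested members in order along the locus (y axis), 1 panel per line. Circles show the change with its SE, filled where called and open where not, and open triangles are upper bounds where no replicate of the line was detected, all of them called. All points lie below 0 on this scale, but with quantile normalization 6 of the called members of L-1210 and 6 of M1 lay above 0.

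The 3 comparisons above share the CT-BM replicates, so the lines were also set against each other. L-1210 against M1 compares the lymphocytic with the myeloid line. Of 16 members tested 11 were higher in L-1210, 0 lower and 5 not called, whereas 7 were higher and 3 lower with quantiles and 10 and 3 with snoRNA202 alone. By limma at an unadjusted p under 0.05, 11 were higher and 2 lower, the latter miR-337-5p (-1.11 ± 0.47) and miR-673-5p (-0.94 ± 0.28). Only its fold of 1.91 kept miR-673-5p from being called (limma adjusted p = 0.013), and its groups did not overlap. Over all 304 assays tested 25.3% were higher and 30.9% lower. Of the 11 higher members 7 were bounds, with a direction set largely by the detection filter. Not detected in M1, miR-127 was at least 178-fold higher in L-1210, miR-411 at least 168-fold, miR-379 at least 131-fold, miR-376c at least 57.1-fold and miR-434-3p at least 56.3-fold.

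Of those measured in both leukaemia lines, miR-409-3p was 7.19-fold higher in L-1210 (log2 2.85 ± 0.66, limma adjusted p = 0.0025, 3 replicates against 2), at 3.61 without L-1210 replicate 1 and 2.08 without replicate 3, and was not called with quantiles (0.19) or in Ct as deposited (1.30). For miR-494 the fold was 5.47 (2.45 ± 0.50), at 1.85 without M1 replicate 2, and not called with quantiles (0.56) or in Ct as deposited (1.10). For miR-410 it was 4.02 (2.01 ± 0.52), but -1.84 with quantiles and 0.56, not called, with snoRNA202 alone. The change of miR-381 was 5.85 ± 1.76, at 8.29 without M1 replicate 1 and 4.64 without replicate 2 or 3. The early miR-667 did not differ beyond its error (0.02 ± 0.36, limma adjusted p = 0.97), in 2 replicates each.

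PYS against L-1210 had 12 members lower, 0 higher and 4 not called of 16, and 1 was higher with snoRNA202 alone and with a Ct limit of 40. By limma at an unadjusted p under 0.05 the counts were 12 and 0. Over the 349 assays tested 27.8% were lower and 46.1% higher. Of the 12 lower members 6 were bounds, with a direction set largely by the detection filter. As bounds, miR-667 was at least 6446-fold and miR-673-5p at least 3268-fold lower in PYS, and miR-409-3p at least 88.5-fold (log2 -6.47, with -7.23 without L-1210 replicate 1 and -5.71 without replicate 3). Measured in both, miR-376c was 11.7-fold lower (log2 -3.55 ± 0.25, limma adjusted p = 1.6e-08), miR-411 7.14-fold (-2.84 ± 0.22) and miR-376a 5.31-fold (-2.41 ± 0.42). The change of miR-337-5p (-1.49 ± 0.52) was not called without L-1210 replicate 2 (-1.06) or PYS replicate 1 (-0.72) and was -2.27 without PYS replicate 2. For miR-410 (-1.12 ± 0.46) the call was lost without L-1210 replicate 1 or 3 or PYS replicate 2 or 3 (limma adjusted p 0.102 to 0.162). The estimate for miR-494 was 0.70 ± 0.49, not called.

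PYS against M1 pointed both ways. Of 13 members tested 6 were higher in PYS (46.2%) and 4 lower (30.8%), with 3 not called, but with quantiles 2 were higher and 7 lower. These shares lie close to those over all 340 assays tested, 46.2% higher and 27.4% lower. Of the 6 higher members 4 were bounds, and of the 4 lower 3, with a direction set largely by the detection filter. Lower in PYS were miR-667 (at least 6362-fold), miR-673-5p (at least 6249.5-fold), miR-409-3p (at least 12.3-fold) and miR-337-5p (6.07-fold, log2 -2.60 ± 0.52), the last at -1.83 without PYS replicate 1 and -3.38 without replicate 2. Without M1 replicate 3, where fewer members could be tested, 2 were lower. Higher were miR-411 (at least 23.5-fold), miR-434-3p (at least 20.7-fold), miR-376a (at least 7.91-fold) and miR-376c (at least 4.87-fold), all undetected in M1. Measured in both, miR-494 was 8.90-fold higher (3.15 ± 0.49, limma adjusted p = 5.5e-05), at 2.55 without M1 replicate 2, and -0.19 with quantiles. The change of miR-381, 4.17 ± 1.72, was not called without M1 replicate 2 or 3 (2.95) and was 6.60 without replicate 1. The groups overlap in miR-381: the M1 replicate that amplified, at a level of -15.4, was higher than PYS at -15.9 and -16.4. The estimate for miR-376b was 0.00 ± 0.86.

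The order of levels between groups follows from these values. Relative to the 3 controls and with no overlap, CT-BM was highest and L-1210 next in miR-136, miR-127, miR-434-3p, miR-379, miR-411, miR-376a and miR-376c, although with quantiles miR-127, miR-376a and miR-376c stood higher in L-1210 than in CT-BM. PYS came after L-1210 where it was detected, and M1 was below detection. For miR-667 L-1210 and M1 did not differ beyond their spread, and PYS was below detection.

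Scaling set the size of these counts. Between the controls named in the design and MammU6 alone, the median of all assays moved by 1.87 (log2) for L-1210, 0.58 for M1 and 1.76 for PYS, all against CT-BM; with snoRNA202 alone it moved by -1.65, -0.44 and -0.59. Scaled to the mean of common assays, those detected in every replicate of the study, it moved by 0.96, 0.50 and 0.60, and 11, 15 and 15 members were lower.

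**Figure D4:**
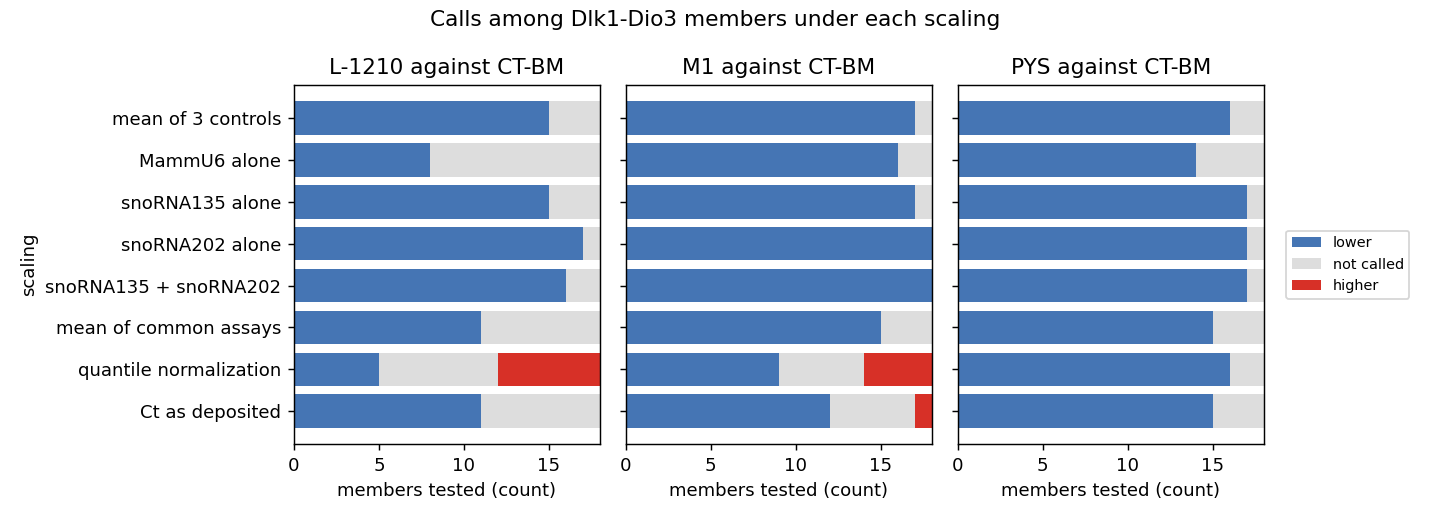
Number of the 18 tested members (x axis) called lower, not called and called higher against CT-BM under each scaling (y axis), 1 panel per line. Lower calls range from 5 to 17 for L-1210, 9 to 18 for M1 and 14 to 17 for PYS, and higher calls appear with quantile normalization (6 for L-1210, 4 for M1) and in Ct as deposited (1 for M1).

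Marker lists of other cell types did not all move one way against CT-BM. Of 10 stromal and mesenchymal miRNAs on the cards 9 were detected in every replicate present of CT-BM, 5 each in L-1210 and M1, and 7 in PYS. Their summed level relative to the controls, on the log2 scale, was -4.86 to -4.53 in CT-BM, -6.19 to -5.64 in PYS, -6.87 to -5.41 in L-1210 and -6.70 to -5.84 in M1. Sums of this kind, here and below, add assays of unlike efficiency and weigh those of earliest Ct most. In the stromal list that was miR-21, with a mean Ct of 20.8 in CT-BM, 20.5 in PYS, 19.9 in L-1210 and 18.8 in M1. Of 9 tested against CT-BM 8 were lower and 0 higher in L-1210 and in M1, and 6 lower and 1 higher in PYS. For this and the lists below, the shares lower and higher over all assays tested were 45.6% and 22.5% in L-1210. They were 44.3% and 25.2% in M1, and 38.7% and 39.8% in PYS. The median log2 change over these 9 was -4.21 for PYS, -9.75 for L-1210 and -11.4 for M1, with undetected replicates set to the Ct limit. Known from smooth muscle and fibroblasts, miR-143 had a mean Ct of 24.7 in CT-BM and was not detected in any line, whereas miR-22 had a mean Ct of 23.9 in CT-BM and 20.8 in PYS. Of 7 neural miRNAs 5 were detected in each group, and their summed level was lowest in CT-BM (-8.01 to -7.70) and highest in PYS (-4.03 to -3.48), with 3 of 6 tested higher and 2 lower in each line. Of the embryonic stem cell list 11 of 11 were higher in PYS, 1 of 5 was lower in L-1210 and 2 of 5 in M1. The blood list had all 8 detected in CT-BM (summed 1.63 to 1.79), 6 in L-1210 (-2.45 to -2.25), 6 in M1 (-1.35 to -1.19) and 6 in PYS (-10.49 to -9.93). Of these 8 against CT-BM, 6 were lower and 1 higher in L-1210, 7 and 1 in M1, and 8 and 0 in PYS. The part of any cell type in the differences of the locus was not tested, and in bulk RNA fewer cells of a type and less RNA per cell cannot be told apart.

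Other assays with numbers of the locus were read beside the members. Of 13 assays for opposite strands 1 was detected, miR-376b*, with Ct 28.9, 28.4 and 30.7 in CT-BM and 32.007 and 29.8 in 2 replicates of L-1210, and none in M1 or PYS, where miR-376b itself was detected. Of 10 rat-named assays with numbers of the locus 1 was detected, that for miR-381. Its Ct was 25.1, 25.6 and 25.0 in CT-BM, 24.4 and 25.3 in 2 replicates of L-1210 and 24.3, 23.4 and 25.3 in PYS, with none in the 2 replicates of M1 that had a value. In the same replicates the mouse assay came 3.45 to 3.83 cycles later in CT-BM, 2.61 and 4.15 in L-1210 and 5.31 and 5.92 in PYS. By the rat-named assay PYS did not differ from CT-BM beyond its error (log2 -0.08 ± 0.44, limma adjusted p = 0.86), nor did L-1210 (-0.67 ± 0.50, limma adjusted p = 0.24), and M1 was at least 5180.0-fold lower. The mouse assay gave the same 3 calls, with larger errors, but its estimates were not all alike. For PYS against CT-BM it stood at -2.09 ± 1.73 with no overlap of levels, while the levels of the rat-named assay overlapped.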

How the data were processed

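Total RNA of 12 replicates, 3 in each of the 4 groups, was measured on TaqMan rodent cards A and B. Per the labels' protocols, the RNA was extracted with a mirVana kit, reverse transcribed, preamplified and run for 40 cycles on an Applied Biosystems 7900HT. The authors deposited 1 table, which per the file headers holds the Ct of each well and its mean over the wells of an assay, in PCR cycles and not normalized. The design text names MammU6, snoRNA135 and snoRNA202 as common controls. A detection limit and the software are not given in the sources used here. Every column of values per sample was used (0 were left out). Ct values carry no read depth, so the number of replicates limits the precision.

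The table of 8969 wells was read with Python 3.11.15 and pandas 2.3.3, and replicates were checked as not being copies of each other. Wells of 1 assay on 1 card were averaged. Undetermined wells and those with a Ct over 35 were set to 35. For the levels (negative delta Ct) 1 mean per group was fitted over the 12 replicates by lmFit and eBayes of limma 3.58.1 under R 4.3.3, with Benjamini-Hochberg adjustment over all assays tested in a comparison. The groups share 1 spread per assay, so replicates set to 35 enter it also in comparisons without their group. The fit was tested on simulated data. A fold against a group with no detected replicate is a bound at the Ct limit, and its direction was set largely by the detection filter. Absent wells were left absent, so some groups have 2 replicates. Shares of detected members were compared with exact permutation tests in SciPy 1.17.1, and figures drawn with matplotlib 3.10.9. Names without an arm were matched to mature sequences through the strand that carried that name in miRBase.

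The members, the marker lists and the tests were chosen with earlier results of these data known. The rule for named miRNAs allows every tested member, with values in each replicate for those of highest level, largest difference, detection in 1 group, or a call that turns with scaling. Alternatives were each control alone, the 2 snoRNAs without MammU6, quantile normalization, the mean of common assays (detected in every replicate), no filter on detection or a filter for both groups, Ct limits of 40 and 32, a fit of only the groups compared, no fold minimum, replicate number as a block, and leaving out each replicate. Ct as deposited, with no controls, was added after seeing the data. Replicate numbers did not pair the samples: deviations of same-numbered replicates from their group means, over 187 assays, correlated above 0.1 in 3 of 18 pairs (-0.45 to 0.33).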

Additional observations from a re-analysis of the deposited data

How the results depend on the processing

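Leaving out each replicate in turn gave these ranges of members called lower and higher: L-1210 against CT-BM 13 to 16 and 0, M1 against CT-BM 16 to 17 and 0, PYS against CT-BM 15 to 16 and 0, L-1210 against M1 0 to 1 and 10 to 12, PYS against L-1210 9 to 12 and 0, and PYS against M1 2 to 4 and 5 to 6. Detected shares then ranged from 34.7% to 35.3% in CT-BM, 30.1% to 31.95% in L-1210, 14.8% to 15.6% in M1 and 17.7% to 19.2% in PYS. With replicate number as a replicate block, which does not pair these samples, the counts lower and higher were 15 and 0, 17 and 0, 15 and 0, 1 and 12, 12 and 0, and 4 and 6 in the same order.

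For L-1210 against CT-BM 8 members were lower with MammU6 alone, and 5 lower and 6 higher with quantiles. In M1 against CT-BM quantiles gave 9 lower and 4 higher, and Ct as deposited 1 higher. For L-1210 against M1, where 0 were lower, snoRNA135 alone gave 1, snoRNA202 alone 3, both without MammU6 2, quantiles 3 (with 7 higher), Ct as deposited 3, and a Ct limit of 32, no filter and no fold minimum 1 each. For PYS against L-1210 1 was higher with snoRNA202 alone and with a Ct limit of 40, and for PYS against CT-BM 1 with a Ct limit of 40. For PYS against M1 quantiles gave 7 lower and 2 higher, and a Ct limit of 32 gave 1 higher. With no filter 46 members were lower in L-1210 and 49 in M1 against CT-BM, 42 were higher in L-1210 than in M1 and 39 higher in PYS than in M1. By construction, members at the limit on both sides then differ by the shift of the controls alone. With detection in every replicate of both groups, 7 were lower in M1 and 8 in PYS against CT-BM, 3 higher in L-1210 than in M1, 5 lower in PYS than in L-1210, and 1 lower and 1 higher in PYS against M1, since fewer could be tested. At a Ct limit of 32 the detected share was 31.8% in CT-BM, 13.2% in M1 and 9.29% in PYS, and the median percentile of detected members was 19.0 in CT-BM and 7.74 in PYS.

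Among the 81 differences called for single members, the direction turned in 19 cases, 14 with quantiles, 3 with MammU6 alone and 2 in Ct as deposited, and the cause was not tested. With quantiles, against CT-BM, L-1210 stood at log2 1.75 for miR-127, 1.25 for miR-337-5p, 1.23 for miR-376a, 1.92 for miR-376c, 1.19 for miR-410 and 0.57 for miR-494. M1 stood at 4.29 for miR-337-5p, 0.23 for miR-376b, 3.16 for miR-409-3p, 3.03 for miR-410, 0.013 for miR-494 and 4.11 for miR-544. Between lines quantiles gave -1.84 for miR-410 in L-1210 against M1 and -0.19 for miR-494 in PYS against M1. With MammU6 alone L-1210 against CT-BM was 0.15 for miR-494, 0.72 for miR-667 and 0.15 for miR-673-5p. In Ct as deposited M1 against CT-BM was 0.21 for miR-337-5p and 0.94 for miR-667.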

Other observations

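Ct values close to a whole number were more frequent than an even spread of decimals would give, most of all late in the run. Of 4635 amplified wells 866 (18.7%) lay within 0.05 cycles of a whole number, against 10.0% for even decimals, and among the amplified wells of members 44 (28.6%) did. The share rose with Ct, and members amplify late: over Ct 20 to 25 it was 16.8% of all amplified wells and 13.0% of 23 member wells, over 25 to 30 it was 20.3% and 23.7% of 76, and above 30 it was 34.5% of 322 and 41.8% of 55. Within 0.02 cycles, a tolerance chosen after seeing the data, they were 7.14% of all wells and 16.9% of member wells, against 4.0%. Late values of miR-376c in PYS are examples, with a Ct of 34.0 in 2 of 3 replicates. How the decimals arose was not tested.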
